A study of Drosophila melanogaster with 10 samples.

Results

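The kinetochore and centromere genes described here were chosen by name. The rule uses no measured value, although it was set with earlier results of these data known. The rule lists Mis12, Spc105R, Ndc80, Nuf2, Spc25, Nsl1, cid, cal1 and Cenp-C, which are 9 of the 15422 genes in the deposited table. Of these, 8 were found under the name given in the rule, and Nsl1 was found under its other name Kmn1. All 9 passed the filter on low values, a level of at least 1 RPKM (reads per kilobase and megaread counted) in at least 2 libraries.

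PolyA RNA was sequenced from whole Drosophila melanogaster embryos of stages 15 to 16, raised at 25 °C, in a study of the cell cycle inhibitor Dacapo. Dacapo is the fly counterpart of p21 and p27, which inhibit cyclin-dependent kinases. The control had the driver alone (pros-Gal4/+). The 4 other genotypes combined pros-Gal4 with a UAS transgene for wild type dacapo (called dap here), or for dacapo[CRL4], dacapo[PCNA] or dacapo[CDI] (dapCRL4, dapPCNA and dapCDI), each of which the labels describe as encoding a stabilized protein. Each of the 5 genotypes had 2 libraries, which the labels call independent samples, so p-values measure the spread between these samples. All embryos carried pros-Gal4, which drives expression in the pattern of prospero, a gene of the developing nervous system among other tissues. The controls carried no UAS insertion, so a difference shared by the 4 dacapo forms cannot be told apart from one between fly strains.

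The kinetochore is the protein assembly that joins a chromosome to the spindle. Its base is centromeric chromatin, in which the histone H3 variant Cid (the fly CENP-A) replaces H3. The chaperone CAL1 loads Cid, and CENP-C bridges Cid nucleosomes to the outer plate. The outer plate is the KMN network, made of the Mis12 complex (with Mis12 and Kmn1, also called Nsl1), the scaffold Spc105R (the fly KNL1) and the Ndc80 complex (with Ndc80, Nuf2 and Spc25), which grips microtubules. These genes act in dividing cells, and at stages 15 to 16 division persists mainly in neural progenitors and a few other tissues.

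Counted reads per library, recovered from the deposited values, ranged from 17.1 to 25.8 megareads, with the control libraries highest at 25.3 and 25.8 megareads. The deposited levels behaved as reads per kilobase of coding sequence. With the coding length, 92.2 to 93.9% of genes with few reads gave whole read numbers (within 0.02 reads), against 10.7 to 13.2% with the exon length. Levels below are therefore per coding length. Whether reads in untranslated regions were counted is not given, so comparisons of level between genes hold on that scale only. Replicates differed by a median of 0.0909 to 0.171 log2 over all genes, most in dapCDI. The targeted gene dap stood at 70.6 ± 0.117 RPKM in the control, 84.6 ± 1.70 for dap, 78.3 ± 3.69 for dapCRL4, 72.03 ± 1.86 for dapPCNA and 163 ± 9.88 for dapCDI (SD, n = 2 each). Whether reads of the transgenes are counted in it is not given in the sources used here.

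Among the 9 genes, Mis12 was lower in every dacapo form than in the control, by 1.94-fold to 3.28-fold, and passed the test in each of the 4 comparisons. The chaperone gene cal1 fell 1.35-fold in dapCDI, and Kmn1 was 1.67-fold lower in dapPCNA than in wild type dap. Spc105R was lower in all 3 stabilized forms by 1.76-fold to 2.12-fold on the fitted scale, without passing the test in any. The genes cid, Ndc80, Nuf2, Spc25 and Cenp-C passed no comparison. No gene of the 9 passed the test upwards in any comparison.

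The 9 genes were low to moderately expressed in the control. Spc25 was the most abundant at 16.7 ± 1.51 RPKM, above 45.7% of the genes tested, followed by cal1 at 12.1 ± 1.12 RPKM, above 37.5%. Ndc80 was the least abundant at 2.44 ± 0.444 RPKM, above 13.2% (SD, n = 2 in each case). Partners within the Ndc80 complex were not at equal levels on the scale of coding length. The level of Spc25 was 6.44 to 11.0 times that of Ndc80 over the 10 libraries, and that of Nuf2 was 1.56 to 2.65 times that of Ndc80. Between the highest and the lowest library, Mis12 spanned a ratio of 3.74 and Spc105R one of 2.40, whereas the other 7 spanned ratios of 1.39 to 1.99.

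**Figure D1:**
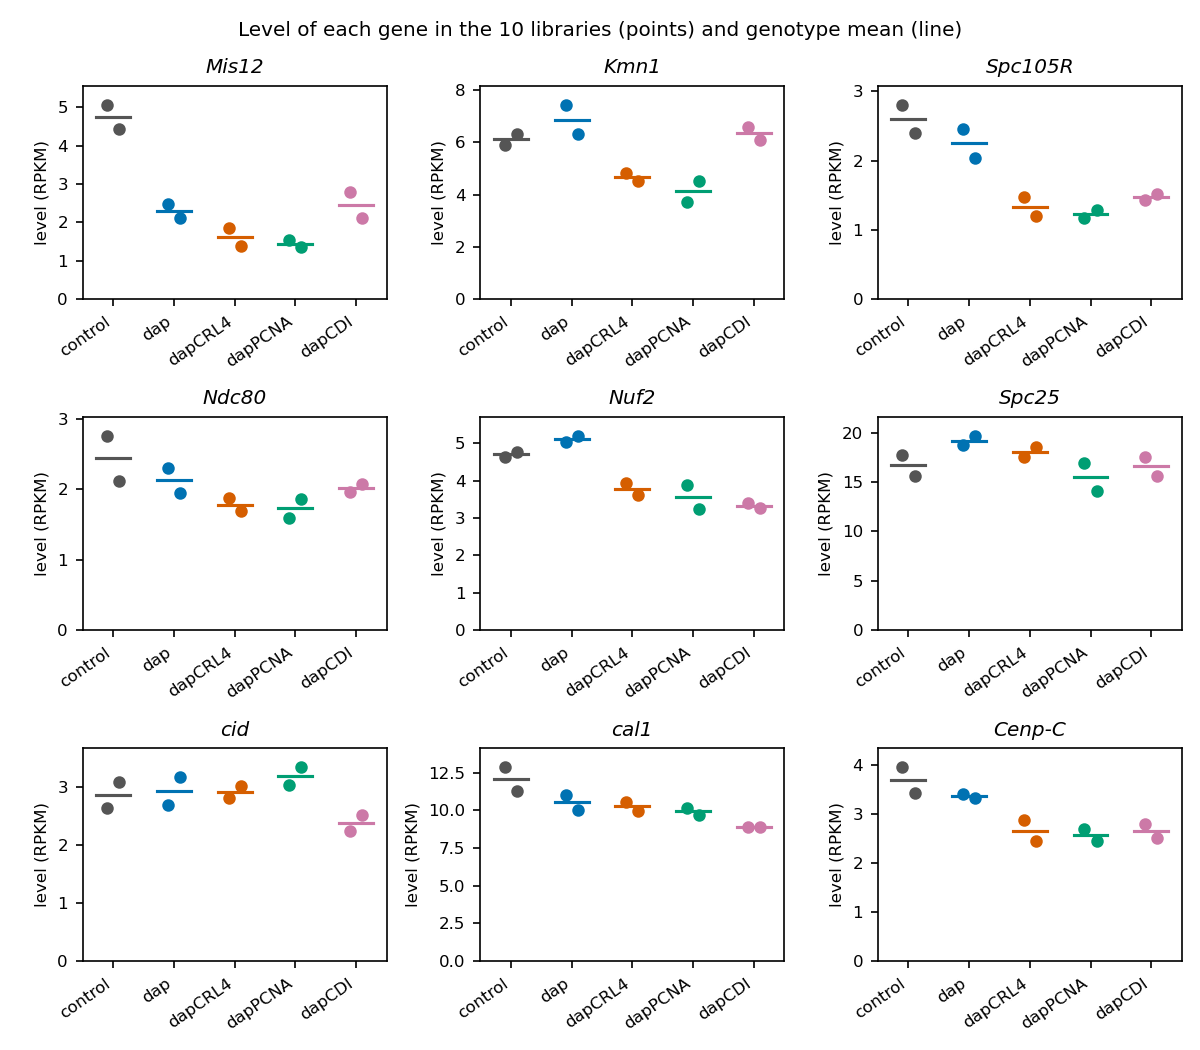
Level of each gene in RPKM (vertical axis, from 0, with a scale of its own per gene) in the 5 genotypes. Each point is 1 library and each line the mean of 2. For Mis12 both control points, at 5.05 and 4.42 RPKM, lie above all 8 points of the dacapo forms, whereas for cid the points of the control overlap those of dap, dapCRL4 and dapPCNA.

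Mis12 encodes the subunit for which the Mis12 complex is named. It lies on chromosome arm 3L at 6968035 to 6969048 on the minus strand (build BDGP6, FBgn0035725), with 3 exons and a coding length of 546 bases. Its level was 5.05 and 4.42 RPKM in both control libraries, 2.47 and 2.10 for dap, 1.84 and 1.38 for dapCRL4, 1.54 and 1.35 for dapPCNA, and 2.79 and 2.12 for dapCDI. Both control libraries lay above the 8 others, and the libraries of dapCRL4 and dapPCNA lay below those of dap and dapCDI.

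The number of reads behind Mis12 was small. It had 71 and 61 reads in the control libraries, 28 and 24 for dap, 20 and 17 for dapCRL4, 18 and 13 for dapPCNA, and 26 and 23 for dapCDI. The exact 95% Poisson interval of the level from the summed reads, which covers counting error only, was 3.96 to 5.61 RPKM in the control. It was 1.71 to 2.995 RPKM in dap, 1.13 to 2.20 for dapCRL4, 0.987 to 2.06 for dapPCNA and 1.79 to 3.21 for dapCDI. The control interval overlapped none of the 4 others, and those 4 overlapped each other.

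In dap, Mis12 fell from 4.73 ± 0.442 to 2.28 ± 0.261 RPKM (SD, n = 2 each), a log2 change of −1.05, 95% interval −1.56 to −0.55 (limma adjusted p = 0.0243). It was the only member called lower there, where 3.27% of all genes tested were called lower. In dapCRL4 it fell to 1.61 ± 0.324 RPKM, a log2 change of −1.57, interval −2.07 to −1.06 (limma adjusted p = 0.00878), and was again the only member called, against 0.423% of all genes tested. In dapPCNA it fell to 1.44 ± 0.136 RPKM, a log2 change of −1.71, interval −2.22 to −1.21 (limma adjusted p = 0.00438), as the only member called against 0.558% of all genes. In dapCDI it fell to 2.46 ± 0.476 RPKM, a log2 change of −0.96, interval −1.46 to −0.45 (limma adjusted p = 0.0440), 1 of 2 members called lower there against 2.83% of all genes. These 4 comparisons share the 2 control libraries and so do not repeat each other independently. Against wild type dap the log2 change of Mis12 was −0.51 for dapCRL4, −0.66 for dapPCNA and 0.10 for dapCDI, and none passed (limma adjusted p = 0.333, 0.134 and 0.937).

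In whole embryos, fewer cells that express a gene and less of its RNA per cell cannot be told apart. The calls of Mis12 rested on few libraries. Without control 1 the limma adjusted p of Mis12 was 0.115 for dap, 0.0774 for dapCRL4, 0.0533 for dapPCNA and 0.196 for dapCDI, and without control 2 it was 0.111, 0.0529 and 0.132 for dap, dapCRL4 and dapCDI. The call in dap was also lost without dap 2 (limma adjusted p = 0.141), that in dapCRL4 without dapCRL4 2 (0.0877), and that in dapCDI without any 1 of the 8 libraries of control, dapCRL4, dapPCNA and dapCDI (up to 0.196). The direction held throughout: the log2 change ranged from −1.31 to −0.80 for dap, from −1.77 to −1.14 for dapCRL4, from −1.81 to −1.23 for dapPCNA and from −1.17 to −0.74 for dapCDI. A correction for the trend of the values with coding length did not shrink the change, which was then −1.26, −1.66, −1.76 and −1.14 log2 in the same order.

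**Figure D2:**
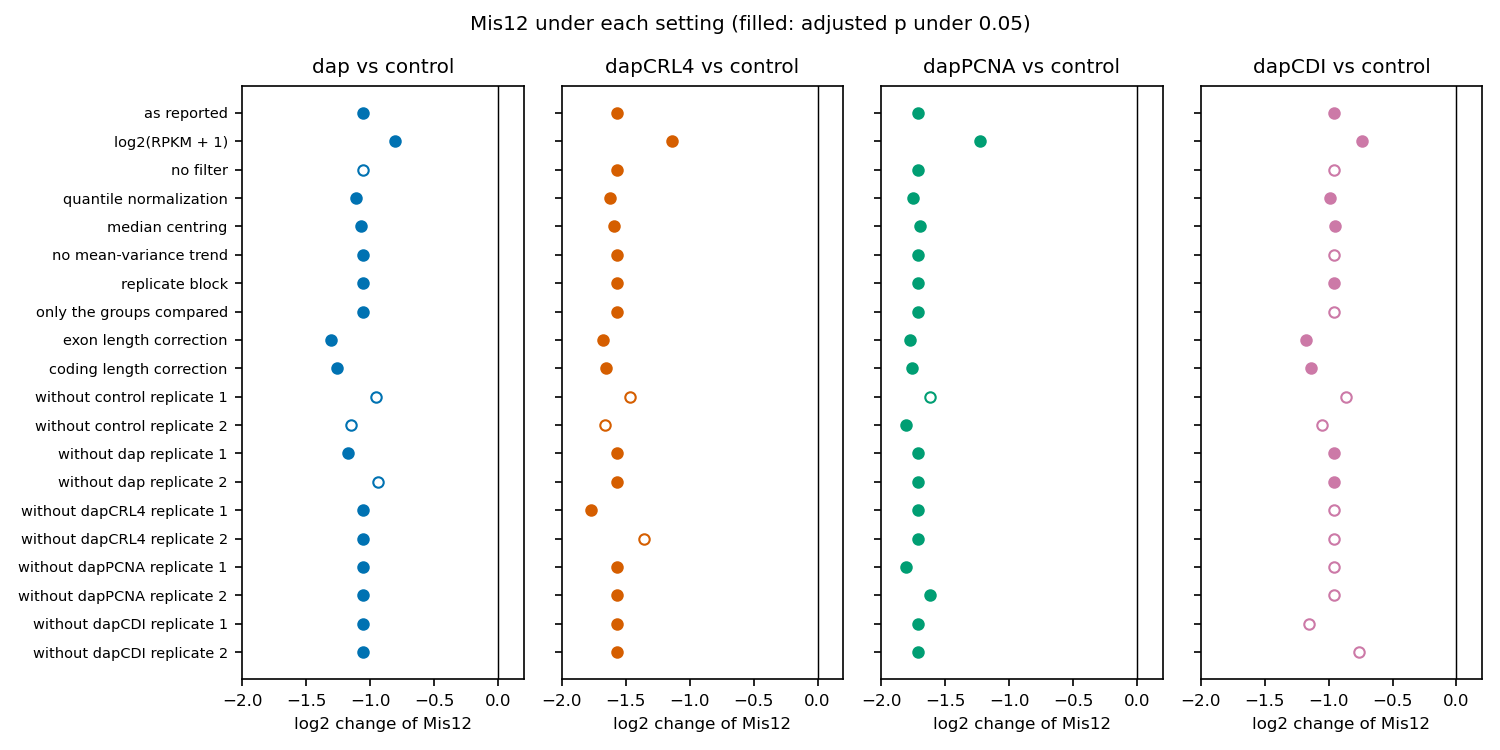
Log2 change of Mis12 against the control (horizontal axis) in each dacapo form (panels), as reported and under each alternative that could be fitted (rows). Filled points passed an adjusted p of 0.05. Every point lies below 0, the nearest to it at −0.74 for dapCDI.

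The genes next to Mis12 on 3L did not pass the test in any of these comparisons. CG10064, which lies 138 bases away, differed from the control by −0.30, −0.11, 0.19 and 0.05 log2 in dap, dapCRL4, dapPCNA and dapCDI (limma adjusted p = 0.330, 0.847, 0.795 and 0.877). CG9953, which lies 610 bases away on the other side, differed by −0.10, −0.10, −0.22 and −0.23 log2 (limma adjusted p = 0.504, 0.654, 0.421 and 0.138).

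Kmn1 encodes the Nsl1 subunit of the same complex. It lies on the X chromosome at 11571383 to 11572442 on the minus strand (FBgn0027259), with a coding length of 552 bases, none of which overlaps an exon of its neighbour CG11699. Its level was 5.91 and 6.31 RPKM in the control, 7.41 and 6.32 for dap, 4.83 and 4.51 for dapCRL4, 3.72 and 4.51 for dapPCNA, and 6.59 and 6.11 for dapCDI. The 4 libraries of dapCRL4 and dapPCNA lay below the 6 others, and the range of dapCDI overlapped those of control and dap.

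Against the control the log2 change of Kmn1 was 0.16 for dap (limma adjusted p = 0.437), −0.39 for dapCRL4 (0.221), −0.57 for dapPCNA (0.110) and 0.05 for dapCDI (0.821), and none passed. Against wild type dap, Kmn1 was lower in dapPCNA, at 4.12 ± 0.558 against 6.86 ± 0.775 RPKM (SD, n = 2 each), a log2 change of −0.74, interval −1.05 to −0.43 (limma adjusted p = 0.0408). It was the only member called in that comparison, in which 0.981% of all genes tested were called lower and 0.346% higher. The call was lost without any 1 of the 8 libraries of control, dap, dapCRL4 and dapPCNA, up to an adjusted p of 0.255 (dapPCNA 1 left out), and was kept without either dapCDI library. Both length corrections also ended it, at −0.58 log2 and an adjusted p of 0.0695 by coding length and −0.56 log2 and 0.0836 by exon length.

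The ratio of Kmn1 to Mis12 was 1.17 and 1.43 in the control libraries and 2.36 to 3.35 in the 8 others. Kmn1 and Mis12 were thus nearest to each other in level in the control, where Mis12 was highest.

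Spc105R encodes the scaffold that recruits checkpoint proteins to the kinetochore. It lies on 3L at 20800410 to 20806853 on the plus strand (FBgn0037025), with 5 exons and a coding length of 5883 bases, the longest of the 9. Its level was 2.80 and 2.40 RPKM in the control, 2.46 and 2.04 for dap, 1.47 and 1.20 for dapCRL4, 1.17 and 1.28 for dapPCNA, and 1.43 and 1.52 for dapCDI. The 6 libraries of the stabilized forms lay below the 4 of control and dap, on 133 to 178 reads against 251 to 424.

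The log2 change of Spc105R against the control was −0.21 for dap (interval −0.71 to 0.29, limma adjusted p = 0.548) and −0.96 for dapCRL4 (−1.46 to −0.46, 0.0794). It was −1.08 for dapPCNA (−1.58 to −0.58, limma adjusted p = 0.0551) and −0.81 for dapCDI (−1.31 to −0.31, 0.0548). None passed the threshold, although the 3 intervals of the stabilized forms did not include 0. Against wild type dap the change was −0.75, −0.87 and −0.61 for dapCRL4, dapPCNA and dapCDI, with limma adjusted p of 0.202, 0.0819 and 0.379. The difference from the control in dapPCNA passed under 6 other settings, among them quantile normalization (limma adjusted p = 0.0373) and a fit without a mean-variance trend (0.0204). The difference from dap in dapPCNA passed after correction for coding length (−1.06 log2, limma adjusted p = 0.0467). Over the alternatives, the log2 change against the control ranged from −1.11 to −0.62 for dapCRL4, −1.19 to −0.69 for dapPCNA and −0.93 to −0.54 for dapCDI. For dap it ranged from −0.34 to 0.04, with a changed sign in 2 settings.

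The Ndc80 complex was represented by 3 of its genes. Ndc80 (X, 13609671 to 13612062, minus strand, FBgn0030500, coding length 2028 bases) encodes the subunit with the main microtubule contact. Its level was 2.76 and 2.13 RPKM in the control, 2.30 and 1.95 for dap, 1.88 and 1.69 for dapCRL4, 1.59 and 1.87 for dapPCNA, and 1.97 and 2.08 for dapCDI. The range of dap overlapped those of control and dapCDI, and the libraries of dapCRL4 and dapPCNA lay below all of these. The log2 change against the control was −0.19, −0.44, −0.49 and −0.26 for dap, dapCRL4, dapPCNA and dapCDI (limma adjusted p = 0.566, 0.346, 0.429 and 0.436).

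Nuf2 (2L, 7064431 to 7065837, minus strand, FBgn0031886, coding length 1188 bases) encodes the dimer partner of Ndc80, and 7 of its coding bases overlap an exon of Sem1. Its level was 4.64 and 4.76 RPKM in the control, 5.02 and 5.19 for dap, 3.94 and 3.63 for dapCRL4, 3.89 and 3.24 for dapPCNA, and 3.41 and 3.26 for dapCDI. As with Spc105R, all 6 libraries of the stabilized forms lay below those of control and dap. Against the control, none of the log2 changes of 0.12, −0.32, −0.40 and −0.50 for dap, dapCRL4, dapPCNA and dapCDI passed (limma adjusted p = 0.585, 0.309, 0.281 and 0.0573). Against wild type dap they were −0.43, −0.52 and −0.62 in the stabilized forms (limma adjusted p = 0.234, 0.0881 and 0.153).

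Spc25 (3R, 12961745 to 12963249, plus strand, FBgn0087021, coding length 669 bases) encodes a subunit at the inner end of the complex and lies within the gene grsm, on the opposite strand, without overlap of its coding bases with exons of grsm. Its level was 17.8 and 15.6 RPKM in the control, 18.8 and 19.6 for dap, 17.6 and 18.5 for dapCRL4, 17.0 and 14.1 for dapPCNA, and 17.5 and 15.6 for dapCDI. The ranges of the 3 stabilized forms overlapped that of the control, while both dap libraries lay above all others. The log2 change was 0.21 for dap (interval −0.04 to 0.46, limma adjusted p = 0.229), and 0.12, −0.10 and −0.01 for dapCRL4, dapPCNA and dapCDI (0.657, 0.795 and 0.969).

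At the centromere itself, cid encodes the fly CENP-A. It lies on 2R at 13485617 to 13486631 on the plus strand (FBgn0040477), with 1 exon and a coding length of 678 bases. Its level was 2.63 and 3.09 RPKM in the control, 2.70 and 3.17 for dap, 2.82 and 3.01 for dapCRL4, 3.03 and 3.34 for dapPCNA, and 2.25 and 2.52 for dapCDI. Both dapCDI libraries were below the 8 others, and the range of the control overlapped those of dap, dapCRL4 and dapPCNA. The log2 change was 0.03 for dap (interval −0.35 to 0.42), 0.03 for dapCRL4 (−0.36 to 0.42), 0.16 for dapPCNA (−0.23 to 0.54) and −0.26 for dapCDI (−0.65 to 0.12), with limma adjusted p of 0.909, 0.957, 0.804 and 0.327. It had 26 to 53 reads a library.

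The gene cal1 (3R, 17088280 to 17091938, plus strand, FBgn0038478) encodes the chaperone that loads Cid and has a coding length of 2940 bases, which do not overlap exons of its neighbour cher. It had the most reads of the 9, from 446 to 973 a library. Its level was 12.8 and 11.3 RPKM in the control, 11.0 and 10.02 for dap, 10.5 and 9.97 for dapCRL4, 10.2 and 9.69 for dapPCNA, and 8.90 and 8.90 for dapCDI. Both control libraries lay above all others, and both dapCDI libraries lay below all others.

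In dapCDI, cal1 fell from 12.1 ± 1.12 to 8.90 ± 0.00105 RPKM (SD, n = 2 each), a log2 change of −0.43, interval −0.66 to −0.21 (limma adjusted p = 0.0441). Its changes of −0.19 for dap, −0.23 for dapCRL4 and −0.28 for dapPCNA did not pass (limma adjusted p = 0.217, 0.309 and 0.318). The call in dapCDI was lost without any 1 of control 1, control 2, dapCDI 1 and the 4 libraries of dapCRL4 and dapPCNA (limma adjusted p of 0.0648 to 0.206). With same-numbered libraries as a block its adjusted p was 0.0532, and after correction for coding length the change was −0.31 (adjusted p = 0.0693) and for exon length −0.35 (0.0508). It was also lost without a filter (0.0827), without a mean-variance trend (0.0663) and with only the groups compared (0.147), so that 7 of 20 alternatives kept it.

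Cenp-C (3R, 8564105 to 8569248, plus strand, FBgn0266916, coding length 4236 bases) encodes the bridge between Cid chromatin and the Mis12 complex. Its level was 3.96 and 3.43 RPKM in the control, 3.41 and 3.34 for dap, 2.87 and 2.45 for dapCRL4, 2.70 and 2.46 for dapPCNA, and 2.80 and 2.52 for dapCDI. Both control libraries lay highest, those of dap next, and the 6 of the stabilized forms lowest and overlapping. The log2 change was −0.13 for dap (limma adjusted p = 0.622), −0.47 for dapCRL4 (0.215), −0.52 for dapPCNA (0.235) and −0.47 for dapCDI (0.0907), and none passed.

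**Figure D3:**
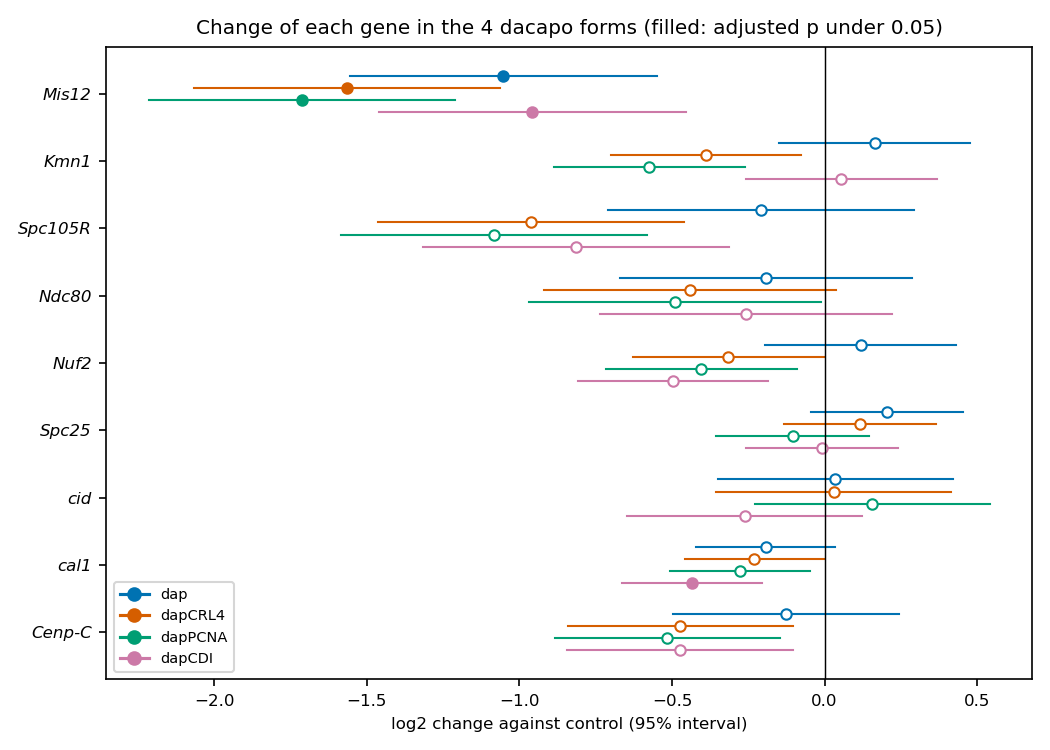
Log2 change of each gene against the control (horizontal axis) with its 95% interval from the limma fit, for the 4 dacapo forms (colours). Filled points passed an adjusted p of 0.05. Mis12 is filled in all 4 forms and cal1 in dapCDI, while the points of Kmn1, Nuf2, Spc25 and cid lie on either side of 0.

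Taken over the 9 genes, the median log2 change against the control was −0.13 for dap, −0.39 for dapCRL4, −0.49 for dapPCNA and −0.43 for dapCDI. The median of all 10396 genes tested was 0.06, 0.04, 0.00 and 0.04 in the same order. Values below 0 were found for 5, 7, 8 and 8 of the 9 genes, and for 4362, 4309, 5129 and 4515 of all genes. The shares called higher among all genes were 8.53% for dap, 1.03% for dapCRL4, 0.741% for dapPCNA and 4.73% for dapCDI, with none of the 9 among them.

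Set against wild type dap, the 9 genes had a median of −0.35 for dapCRL4, −0.39 for dapPCNA and −0.24 for dapCDI, with 9, 8 and 8 below 0. The medians of all genes were −0.02, −0.05 and −0.02. Apart from Kmn1 in dapPCNA, no member was called in these comparisons, in which 0.115% of all genes were called lower and 0.0481% higher in dapCRL4, and 0.0866% lower and 0.0577% higher in dapCDI. The 13 markers of cycling cells had similar medians in these comparisons, at −0.30, −0.37 and −0.26, with 13 of 13 below 0 in each. These 3 comparisons share the dap libraries. Against the control, the medians of the 13 markers were 0.17 for dap, −0.12 for dapCRL4, −0.17 for dapPCNA and −0.09 for dapCDI. Values below 0 were found for 3, 8, 10 and 7 of the 13 in the same order. The medians of the 9 genes against the control were lower than those of the 13 markers in each form, at −0.13, −0.39, −0.49 and −0.43. The 8 markers of neurons had medians of −0.43, −0.13, −0.14 and −0.67, lower than those of the 9 genes in dap and dapCDI. Values below 0 were found for 8, 6, 8 and 8 of these 8. The differences between these lists were not tested.

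All 6 libraries of the stabilized forms lay below the 4 of control and dap for Spc105R, Nuf2 and Cenp-C, or 3 of 9 genes, against 1.39% of all genes tested. All 8 libraries of the dacapo forms lay below both controls for Mis12, cal1 and Cenp-C, or 3 of 9, against 7.87% of all genes. For the other orders of libraries given above, the share of all genes was not computed. Those orders only describe the genes named.

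A moderated F test over the 5 genotypes called Mis12 (limma adjusted p = 0.0183) and no other of the 9, against 3.09% of all genes tested. The next smallest adjusted p were those of Kmn1 (0.0506), Spc105R (0.0594) and Nuf2 (0.0828). Among the 3 stabilized forms the F test called none of the 9, against 0.135% of all genes, and the adjusted p of Mis12 and Kmn1 were 0.377 and 0.278.

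The genes whose profile over the 10 libraries was most like that of Mis12 were CG42822, phr6-4 and CG14985. Their centred log2 levels differed from those of Mis12 by a root mean square of 0.213, 0.240 and 0.268, set against 0.621 for Mis12 around its own mean. CG14985, for example, stood at 16.6 ± 2.33 RPKM in the control and at 5.20 to 6.21 RPKM on average in the dacapo forms. For cal1 the nearest were woc, Dek and Ser, at 0.0378, 0.0383 and 0.0428 against 0.152 for cal1 itself. For Kmn1 the nearest were 3 rows of the repeated histone gene His2A, all at 0.130 against 0.297, whose values are identical and so uncertain.

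The other KMN subunits were Nnf1a and Nnf1b of the Mis12 complex and CG42550, now named Kmn2, of the Ndc80 complex. None of the 3 passed against the control. CG42550 stood at 12.1 ± 0.948 RPKM in the control, 13.9 ± 0.988 for dap, 10.6 ± 0.727 for dapCRL4, 6.45 ± 1.55 for dapPCNA and 12.1 ± 2.96 for dapCDI (SD, n = 2). It was lower in dapPCNA than in dap by 1.13 log2 units (log2 change −1.13, limma adjusted p = 0.0277), as Kmn1 was. The median of these 3 genes against the control was 0.31 for dap, −0.19 for dapCRL4, −0.31 for dapPCNA and −0.01 for dapCDI.

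The chromosomal passenger complex corrects faulty attachments of kinetochores. Its list held 5 genes, 1 of which, mei-S332 (the fly Shugoshin), is a protector of centromeric cohesin and not a subunit. The kinase Aurora B (row ial) fell in dapPCNA from 4.93 ± 0.183 to 2.39 ± 0.178 RPKM (log2 change −1.04, limma adjusted p = 0.0179), and borr, the Borealin gene, fell by 0.84 log2 units (−0.84, 0.0342). Against wild type dap the changes in dapPCNA were −1.53 for ial and −0.95 for borr (limma adjusted p = 0.00636 and 0.0266). In dapCDI, Incenp, the scaffold, fell by 0.35 log2 units (limma adjusted p = 0.0454). The list median was 0.14 for dap, −0.39 for dapCRL4, −0.75 for dapPCNA and −0.37 for dapCDI.

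Of 8 kinetochore motors and microtubule regulators, 7 were tested. The kinesin-8 gene Klp67A fell in dapPCNA (log2 change −1.19, limma adjusted p = 0.0161) and in dapCDI (−0.82, 0.0443), and the mitotic kinase gene polo fell in dapPCNA (−0.58, 0.0412). The medians were −0.18, −0.06, −0.04 and −0.25. The spindle checkpoint delays anaphase until kinetochores are attached. Of the list of checkpoint and RZZ genes, which also held the Cdc20 gene fzy, 9 were tested. Mad1 rose in dap (log2 change 0.37, limma adjusted p = 0.0308), 1 of 9 called higher against 8.53% of all genes. The gene fzy was lower in dapPCNA than in dap (log2 change −0.71, limma adjusted p = 0.0398), 1 of 9 against 0.981% of all genes called lower. The medians against the control were −0.04, −0.22, −0.24 and −0.23.

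None of the 7 centromeric chromatin partners was called against the control or dap, and their medians against the control were 0.07, −0.10, −0.18 and −0.14. Of the cohesin genes, 10 were tested, and 3 fell in dapCDI, namely SMC1 (log2 change −0.29), SA (−0.40) and dmt (−0.52), with limma adjusted p of 0.0488, 0.0490 and 0.0265, against 2.83% of all genes called lower there. SMC1 was kept in 7 of 20 alternatives, SA in 3 and dmt in 14, and SMC1 stood at −0.11 after correction for coding length. The medians were −0.16, −0.09, −0.11 and −0.20. Each of the calls in these related lists was lost under at least 1 other setting. Over all genes tested, 0.558% were called lower in dapPCNA and 2.83% in dapCDI against the control, and 0.981% in dapPCNA against dap.

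**Figure D4:**
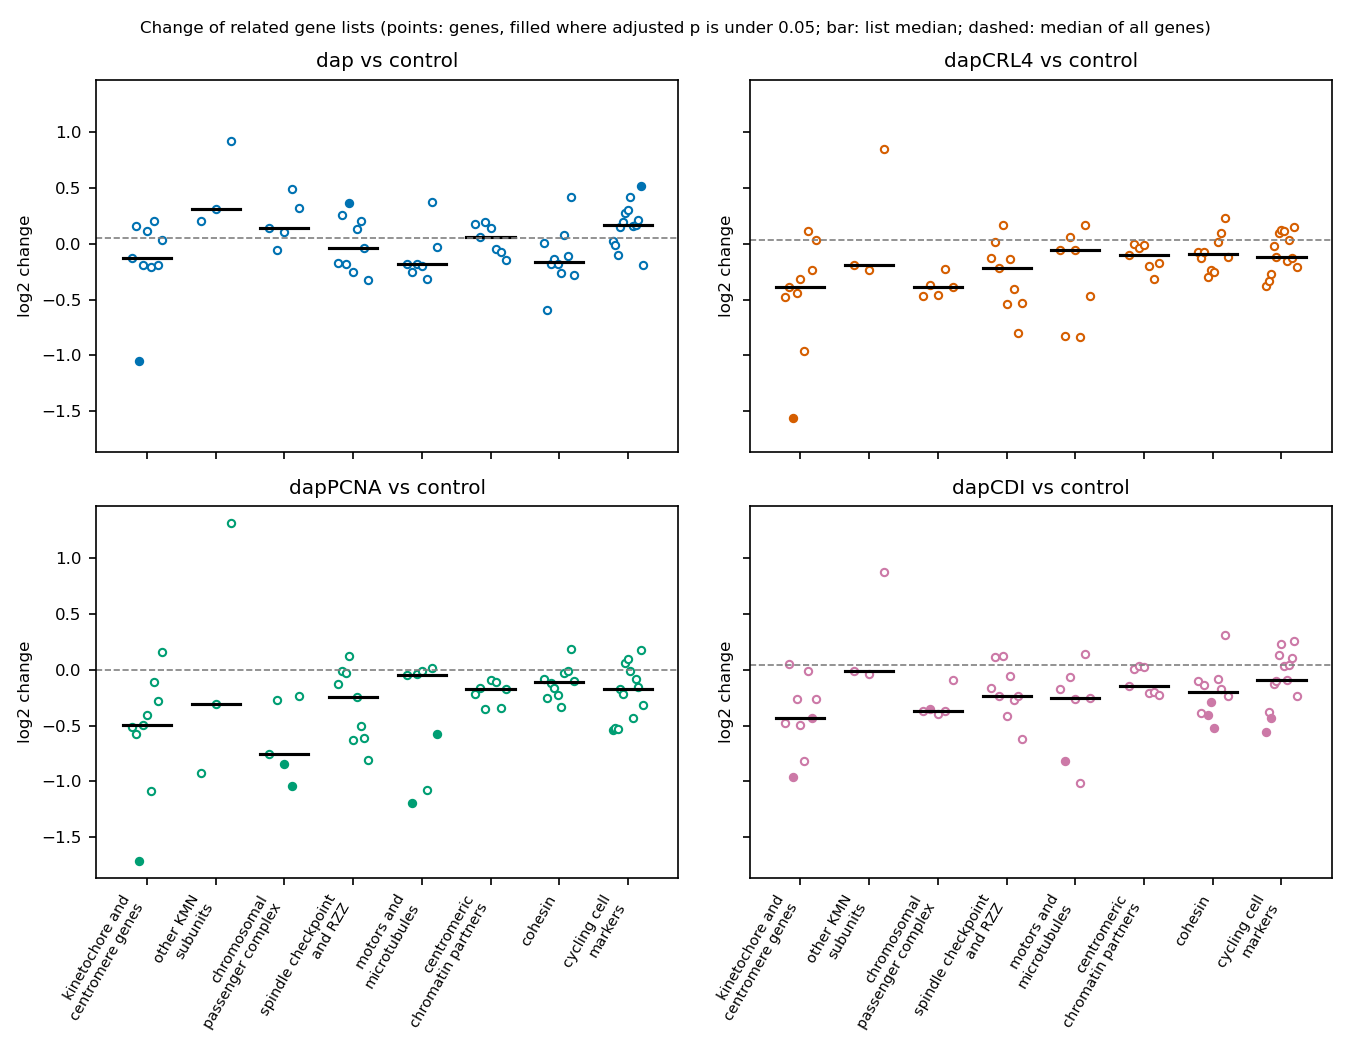
Log2 change against the control (vertical axis) of the tested genes of each list, 1 panel per dacapo form. Points are genes, filled where the adjusted p was under 0.05, bars are list medians and the dashed line is the median of all genes tested. In dapPCNA the bar of the kinetochore and centromere genes stands at −0.49 and that of the list of the chromosomal passenger complex, which also holds mei-S332, at −0.75.

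Markers of the cells that the embryos hold were summed beside these results. The 13 markers of cycling cells summed to 428 to 457 RPKM in the control, 505 to 537 for dap, 432 to 439 for dapCRL4, 409 to 427 for dapPCNA and 416 to 499 for dapCDI. Of these, CycA fell in dapPCNA (log2 change −0.54, limma adjusted p = 0.0179) and dapCDI (−0.55, 0.0128), CycB3 fell in dapCDI (−0.43, 0.0492), and the replication clamp gene PCNA (row mus209) rose in dap (0.52, 0.0279). The last was 1 of 13 called higher in dap, against 8.53% of all genes. Against wild type dap, CycA was lower in dapPCNA and dapCDI (−0.57 and −0.58, limma adjusted p = 0.0231 and 0.0494), and Cdk1 (row cdc2) was lower in dapPCNA (−0.60, 0.0460). Members of this list went both ways in dap, where CycB3 stood at −0.10 and stg at −0.19 log2 without passing, and mus209 was not called after correction for exon length (0.30, limma adjusted p = 0.105). They also went both ways in dapPCNA and dapCDI, with 10 and 7 of the 13 below 0. There mus209 (0.18 and 0.26), RnrS (0.10 and 0.23) and RnrL (0.06 and 0.14) stood above 0 without passing.

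The 6 neuroblast markers summed to 104 to 106 RPKM in the control, 92.2 to 108 for dap, 115 to 117 for dapCRL4, 110.0 to 114 for dapPCNA and 96.7 to 99.3 for dapCDI, where pros fell (log2 change −0.58, limma adjusted p = 0.0490). After correction for exon length the change of pros was −0.06 (limma adjusted p = 0.672), and 14 of 20 alternatives ended the call. The median log2 change of the 6 neuroblast markers in dapCDI was 0.02, with 3 of them below 0. The 8 neuron markers summed to 482 to 491 RPKM in the control, 361 to 468 for dap, 440 to 488 for dapCRL4, 426 to 445 for dapPCNA and 353 to 415 for dapCDI. Among them futsch fell in dap (−0.91, limma adjusted p = 0.0467), and elav and onecut fell in dapCDI (−0.83 and −0.58, 0.0479 and 0.0494). After correction for exon length none of these 3 neuron markers was called, at −0.39, −0.47 and −0.33 log2 (limma adjusted p = 0.186, 0.0708 and 0.0931). The defining neuroblast and neuron markers were above 0 in every library.

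Of the 6 germ cell markers, 5 were tested and none was called. The sum of the 6 ranged from 20.9 to 24.9 RPKM over all libraries, with 1 of the 6 at 0 in at least 1 dapCRL4 library. None of the 7 glial markers was called, and their sums ranged from 393 to 461 RPKM. Of the muscle markers, Mhc fell in dap (log2 change −0.31, limma adjusted p = 0.0360) and was higher in dapPCNA than in dap (0.46, 0.0302), and Mlc2 rose in dapCDI (0.39, 0.0492). After correction for exon length the Mhc values were 0.00052 and 0.21 log2 (limma adjusted p = 0.999 and 0.496), and Mlc2 was not called (0.35, 0.0925). The 6 muscle markers summed to 14042 to 15825 RPKM in the control, 13658 to 15416 for dap and 15438 to 16960 for dapCRL4. They summed to 16377 to 16795 RPKM for dapPCNA and 17450 to 19622 for dapCDI, both above the control. Log2 changes below 0 were found for 5, 1, 0 and 0 of the 6 in dap, dapCRL4, dapPCNA and dapCDI. Of the hemocyte markers, Pxn and vkg fell in dap (−0.52 and −0.35, limma adjusted p = 0.0255 and 0.0268). Neither was called after correction for exon length (−0.31 and −0.11 log2, limma adjusted p = 0.198 and 0.533). The markers nimC1 and crq went both ways in dap, at −0.20 and 0.06 log2, without passing (limma adjusted p = 0.678 and 0.685), and Hml was not tested. The 5 markers summed to 318 to 320 RPKM in the control and 247 to 256 RPKM in dap. Of these sums, vkg made up 223 RPKM in the control and 175 RPKM in dap on average. The part of these cell populations in the changes of Mis12, cal1 and Kmn1 was not tested. Beside the calls of marker genes, 3.27% of all genes were called lower in dap, 0.558% in dapPCNA and 2.83% in dapCDI. Called higher in dapCDI were 4.73%. Against wild type dap, 0.981% were called lower and 0.346% higher in dapPCNA, and 0.0866% lower in dapCDI.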

How the data were processed

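PolyA RNA of 10 libraries (5 genotypes, 2 libraries each) was read as single reads of 50 bases. The authors deposited log2 RPKM values on build BDGP6, per the submitters' processing notes. Not given in the sources used here: the aligner, counter, annotation release, strand setting, and whether reads in UTRs were counted. Depth by the labels was between 20.7 and 43.4 megareads, and the depth in counted reads was recovered from the deposited values. The exact intervals and read numbers cover counting error only.

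Gene names were matched to the BDGP6 annotation: 11229 names were current, 2922 were older names of 1 gene and 1271 were not matched. The filter, a level of 1 RPKM or more in 2 or more libraries, left 10396 genes for testing. The deposited log2 values of all 10 libraries were fitted by genotype in limma 3.58.1 (R 4.3.3) with a mean-variance trend. P-values are two-sided, with Benjamini-Hochberg adjustment over all genes tested in a comparison, and a gene was called at an adjusted p under 0.05. Fitted folds are 2 to the power of the log2 change, and intervals are 95%. Levels are means of RPKM ± SD. The fit was checked on simulated data.

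The members and gene lists were chosen with earlier results of these data known. All 9 members are named, and of each other list up to 4 called genes per comparison. For each called member the 3 genes with the most similar profile are named. The flanking genes of Mis12 were chosen after the values were seen. Zw10 and vtd were not analysed here. Alternatives were log2(RPKM + 1), no filter, a mean of at least 5 RPKM, quantile normalization, median centring, no mean-variance trend, a replicate block, only the groups compared, a correction for exon length (lowess, span 0.3), and leaving out each library. A correction for coding length was added after the data had been seen.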

Additional observations from a re-analysis of the deposited data

Results flagged for a closer look

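Kmn1 differed between a stabilized form and wild type dap when these were compared directly. Its log2 level in dapPCNA was −0.74 relative to dap (limma adjusted p = 0.0408), with both dapPCNA libraries, at 3.72 and 4.51 RPKM, below both dap libraries, at 7.41 and 6.32 RPKM. The number of reads was 44 and 44 in dapPCNA against 85 and 73 in dap. The call was lost in 14 of 20 alternatives, among them the replicate block (limma adjusted p = 0.0626) and the corrections for coding length (0.0695) and exon length (0.0836).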

How the results depend on the processing

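The number of members called was recomputed under each alternative. In dap it went from 1 to 0 without a filter and at a mean of at least 5 RPKM. In dapCRL4 it went from 1 to 0 at a mean of at least 5 RPKM and to 2 without a mean-variance trend. In dapPCNA it went from 1 to 0 at a mean of at least 5 RPKM, to 2 under log2(RPKM + 1), quantile normalization, median centring, no mean-variance trend and the coding length correction, and to 3 under the exon length correction. In dapCDI it went from 2 to 0 without a filter, without a trend and with only the groups compared, and to 1 at a mean of at least 5 RPKM, under the replicate block and under the coding length correction. Between dapPCNA and dap it went from 1 to 0 without a filter, without a trend, under the replicate block, with only the groups compared and under the exon length correction. The F test over 5 genotypes went from 1 to 0 without a filter and to 2 under log2(RPKM + 1), quantile normalization, median centring, no trend and both length corrections. At a mean of at least 5 RPKM only Spc25, Kmn1 and cal1 were tested. For the other changes the cause was not tested.

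Leaving out 1 library at a time gave 0 to 1 member called in dap, dapCRL4, dapPCNA and dapPCNA against dap, 0 to 2 in dapCDI and 0 to 3 in the F test over 5 genotypes. No member was called in dapCRL4 or dapCDI against dap, or among the stabilized forms, under any setting run. A lone library was taken to vary as much as the other groups. Of 63 member results, 6 were called and 6 others were called under some setting only. Those 6 were Spc105R in the stabilized forms against the control and in dapPCNA against dap, Nuf2 in dapCDI and Kmn1 in dapPCNA against the control. Nuf2 in dapCDI was called under the exon length correction (−0.65, limma adjusted p = 0.0403), and so was Kmn1 (−0.63, 0.0498). Under the coding length correction Spc105R replaced Kmn1 as the 1 member called between dapPCNA and dap. Of the 30 calls in other lists, 0 were kept under every setting, and Mhc in dap turned to 0.00052 under the exon length correction.

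Deviations of same-numbered libraries correlated by −0.0535 to 0.0894 over 10 pairs of genotypes, so that no marked effect shared by same-numbered libraries was seen. These values cannot show whether such libraries were collected or prepared together. The replicate block left the Mis12 calls in place and moved the adjusted p of cal1 in dapCDI to 0.0532 and that of Kmn1 in dapPCNA against dap to 0.0626. The counts over all genes, from which the shares beside the members come, moved more. In dap they went from 1227 to 73 without dap 2 and to 2236 without dapCDI 1. In dapCRL4 they went from 151 to 54 without dapCRL4 2 and to 297 without dapCDI 1. In dapCDI they went from 786 to 43 with only the groups compared and to 2604 without dapCDI 2. In dapPCNA they ranged from 72 to 195 around 135, and between dapPCNA and dap from 14 without dapPCNA 1 to 750 without dapCDI 2 around 138. Over 5 genotypes they went from 321 to 102 without control 2 and to 2103 without dapCDI 2.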
